A study of Chelonus formosanus with 6 samples.

Results

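The unigenes described here are the nose resistant to fluoxetine (nrf) family of the parasitoid wasp Chelonus formosanus, as expressed in the heads of females and males. A unigene is a cluster of assembled transcripts that stands for a gene. Members were all unigenes whose protein hit is described as nose resistant to fluoxetine and whose hit species is not a vertebrate, which gave 12 of 41986 unigenes. The family was picked because TRINITY_DN25347_c0_g4 stood far higher in male heads. The sex difference of that unigene is therefore given as a description, with no test. The other members came in by their description whatever their values, and adjusted p-values taken over all unigenes are given for them.

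The samples were 3 libraries of female heads and 3 of male heads, all from day 1 in the labels, sequenced as poly(A) RNA. The labels give no genotype or treatment, and by them the groups differ only in sex. They do not say whether a library came from a single animal or a pool. The p-values therefore set a difference against the spread between these libraries, which may be technical. The stated purpose of the series was the choice of reference genes for quantitative PCR.

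Proteins of this family span the membrane many times and carry an acyltransferase domain of the type that moves acyl groups onto other molecules. The family takes its name from the nematode Caenorhabditis elegans, in which mutants of nrf-6 do not contract their nose muscles under the antidepressant fluoxetine and also show faulty yolk transport. In Drosophila the gene drop dead belongs to it and is needed in the gut and the brain. What most insect members act on is not known.

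The annotation columns that the choice did not use placed the 12 unigenes together. All 12 matched the acyltransferase 3 family of Pfam, 11 had the orthologous group named for the family, and 11 had the gene ontology term for transfer of acyl groups other than amino-acyl groups. The SwissProt match of 8 was the worm protein nrf-6. The best hit was in the braconid wasp Microplitis demolitor for 9 members, in the braconid Diachasma alloeum for 2 and in the egg parasitoid Trichogramma pretiosum for 1. TRINITY_DN24912_c0_g1 was the only member with further ontology terms, which are digestion, defecation, chitin-based cuticle development and oogenesis. Lengths ran from 305 to 2768 bases in all members other than TRINITY_DN25372_c3_g4, which was 3216 bases long. With 5 members of at least 2000 bases and 4 under 700 bases, whether some of the 12 are pieces of the same gene was not tested. No unigene with a vertebrate hit carried the family name.

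Total counts ran from 17937390 to 19517887 per library. Of the 41986 unigenes 12951 had a best hit in a vertebrate and 11254 in an invertebrate. Unigenes with a vertebrate best hit held between 3.15% and 3.75% of the counts of each library, with overlap between the sexes. They were kept in the main fit. The shares of all unigenes tested that are given below therefore include those of them that passed the filter. Genes of the labelled tissue were present, since the head sense organ list (opsins, arrestins and the odorant receptor coreceptor) summed to between 11073 and 12835 TPM in every library. Of its 15 tested unigenes 2 were called higher in females, where 1.69% of all unigenes tested were. That count was 1 without female 2 or without any 1 of the males. Among the 2 was the odorant receptor coreceptor (TRINITY_DN25907_c2_g3) at 370.1 ± 32.2 CPM in females against 158 ± 0.31 CPM in males. The other 13 were not called, and the list's median log2 difference, female minus male, was -0.07. TPM is a level per length, scaled to the same total in every library.

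Levels differed widely within the family. TRINITY_DN24912_c0_g1 was the most abundant member in both sexes. Its level was 35.65, 31.01 and 31.35 TPM in females 1 to 3 and 39.25, 38.46 and 34.43 TPM in males 1 to 3. TRINITY_DN26309_c2_g2 followed at 12.7 ± 1.17 TPM in females and 21.7 ± 0.512 TPM in males. Each such pair gives the mean and SD over 3 libraries of 1 sex. All 6 libraries of each of these members lay apart from those of the next member down. From there the order over the 6 libraries was not settled, because every further pair of neighbours overlapped. That check pooled the sexes. Within each sex TRINITY_DN25347_c0_g4 lay apart from TRINITY_DN25372_c3_g4, above it in males and below it in females. TRINITY_DN25372_c3_g4 had a mean of 8.72 TPM over the 6 libraries and TRINITY_DN8784_c0_g1 a mean of 6.25 TPM. The latter rests on 5 to 11 counts per library, since a unigene of 305 bases gives a high TPM from few reads. Below 5 TPM lay 7 members, down to TRINITY_DN25139_c0_g6 at 1.33 TPM.

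**Figure D1:**
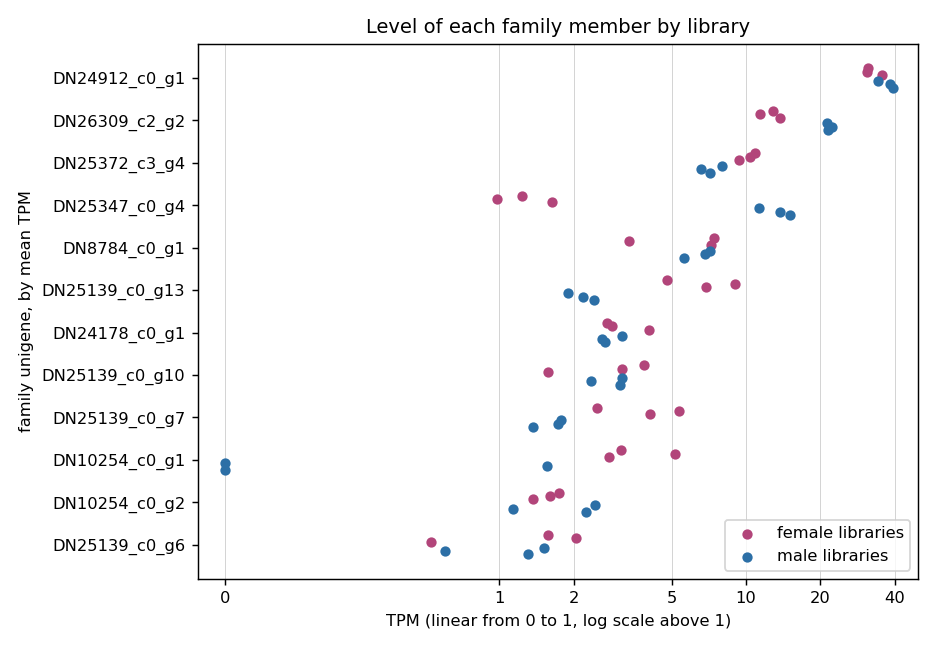
TPM of the 12 family members in each library (x axis, linear from 0 to 1 and logarithmic above), with members ordered by their mean over the 6 libraries (y axis) and 1 point per library, female or male by colour. TRINITY_DN25347_c0_g4 has the widest range counted in TPM, from 0.99 to 15.13, though not in width on this axis. All its males lie to the right of all its females.

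TRINITY_DN25347_c0_g4 changed its place in that order with sex. By mean TPM it was the lowest of the 12 members in females and stood in place 3 in males. Its last place in females is not settled, because its female values overlapped those of TRINITY_DN25139_c0_g6, TRINITY_DN10254_c0_g2 and TRINITY_DN25139_c0_g10. Its level was 1.64, 0.99 and 1.23 TPM in females 1 to 3 and 15.13, 13.77 and 11.26 TPM in males 1 to 3. All males lay above all females, and no library of either sex stood close to the other. It made up 1.48 ± 0.347% of the summed TPM of the family in females and 13.4 ± 1.6% in males. The other 11 members together summed to 85.2 ± 2.34 TPM in females and 85.9 ± 1.01 TPM in males, a difference smaller than the spread between libraries. The whole family summed to 86.5 ± 2.54 TPM in females and 99.3 ± 2.94 TPM in males.

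In CPM, counts scaled by each library's total, TRINITY_DN25347_c0_g4 stood at 2.66 ± 0.662 in females against 29.5 ± 3.8 in males. The log2 difference, female minus male, was -3.47 with a standard error of 0.18 (11.1-fold). Leaving out a library moved it between -3.67 and -3.32. These values led to the choice of the family and support nothing further. The authors' deposited table gave a log2 difference of -3.46 and marked the unigene as significant. It marked 2 of the 12 members in all, the other being TRINITY_DN25139_c0_g13, where it marked 0.846% of all unigenes.

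A neighbour of TRINITY_DN25347_c0_g4 bears on that value, because the counts of both add up in a way that marks divided reads. TRINITY_DN25347_c0_g2, of 2902 bases, came from the same assembly cluster and matched the same Pfam reference protein in the acyltransferase 3 family. Its description is an uncharacterized protein of Diachasma alloeum and its SwissProt match is glutathione S-transferase 1-1, a conjugating enzyme, so its annotation columns point to different proteins. The expected counts of both unigenes were fractional in all 6 libraries, as happens when a read fits more than 1 unigene and is divided between them. Added together they were whole in all 6 libraries (within 0.02), so fractions missing from either unigene stood in the other. How many reads were divided cannot be read from these counts.

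The counts of TRINITY_DN25347_c0_g4 were 60.63, 39.05 and 50.81 in females 1 to 3 and 609.16, 530.25 and 476.35 in males 1 to 3. Those of TRINITY_DN25347_c0_g2 ran the other way, with 131.5 ± 11 CPM in females against 84.2 ± 1.2 CPM in males (log2 difference 0.64, standard error 0.08). The pair summed to 2586, 2621 and 2428 counts in females and to 2159, 2040 and 2022 counts in males. Every female sum lay above every male sum, and the log2 difference of the summed counts was 0.24 with a standard error of 0.08. TRINITY_DN25347_c0_g4 thus held 2.34%, 1.49% and 2.09% of the pair's counts in females 1 to 3. In males 1 to 3 it held 28.2%, 26.0% and 23.6%. The 95% exact binomial interval was 1.81% to 3.02% for female 1 and 26.3% to 30.2% for male 1, which covers counting error only. These shares rest on the values that chose the family and were not tested. Most of the pair's counts were those of TRINITY_DN25347_c0_g2, so the sum says little of TRINITY_DN25347_c0_g4 alone. No sequence was used, and whether the pair are separate genes, ends of the same gene or wrongly joined contigs was not tested. Summing was chosen after the values were seen.

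**Figure D2:**
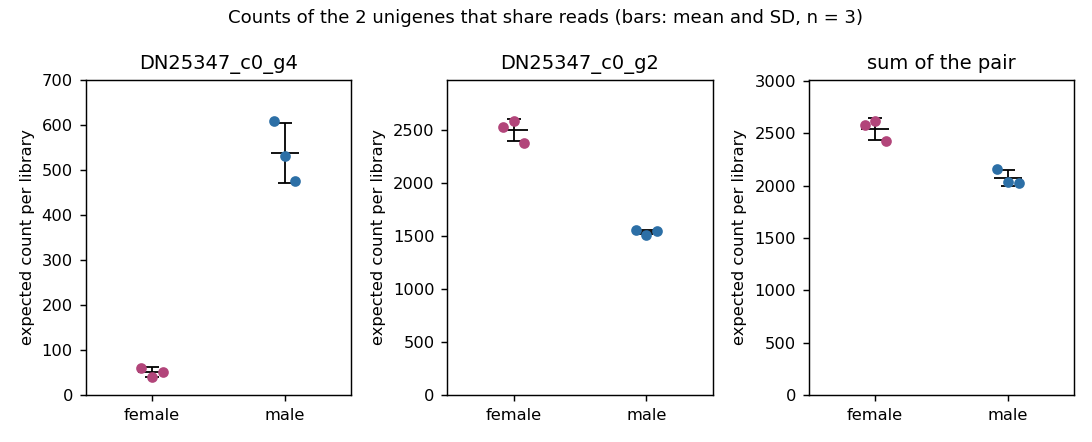
Expected counts per library (y axes, each from 0) of TRINITY_DN25347_c0_g4, of TRINITY_DN25347_c0_g2 and of their sum, in 3 female and 3 male libraries, with bars for mean and SD. The first unigene is higher in males, the second is higher in females, and the sum is higher in females (2428 to 2621 against 2022 to 2159).

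The assembly cluster held 8 other unigenes in all. Among them were a myb-like protein W unigene (TRINITY_DN25347_c0_g9) at 84.9 CPM in females against 81.3 CPM in males (adjusted p = 0.838) and a natterin-3-like unigene (TRINITY_DN25347_c0_g3) at 6.88 and 7.32 CPM (adjusted p = 0.901). Neither description is that of an acyltransferase, so an assembly cluster can hold unigenes of differing annotation. Over all 8 clusters that hold a family member there were 68 other unigenes, of which 53 passed the filter. TRINITY_DN25347_c0_g2 is not counted further, since it shares reads with TRINITY_DN25347_c0_g4. Of the other 52 only 1 passed, where 2.8% of all unigenes tested were called. It was the odorant-binding protein 10 unigene TRINITY_DN25372_c3_g9, a carrier of odorants, at 5786 CPM in females against 3420 CPM in males (adjusted p = 0.00053).

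Of the other 11 members 10 passed the filter on low counts and were tested (edgeR's quasi-likelihood F-test with a threshold of 0.05 on p adjusted over all unigenes). Of these, 1 passed on the male side, 1 on the female side and 8 missed the threshold, where 2.8% of all 21196 unigenes tested were called, 1.11% on the male side and 1.69% on the female side. Because the contrast chose the family, nothing is read from that share. Among the 10, 4 had no overlap between the sexes, where 17.3% of all unigenes tested had none. The median log2 difference of the 10 was -0.02, beside 0.00 for all unigenes (-7.6e-05), and they ran from -0.87 to 1.74. An unadjusted p under 0.05 was found for 3 of the 8 that did not pass. The share of all unigenes at that unadjusted threshold is not given here, so nothing is read from this count either.

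TRINITY_DN26309_c2_g2, the second most abundant member, was higher in males. Its values were 29.0, 24.8 and 24.2 CPM in females 1 to 3 and 46.5, 46.3 and 50.04 CPM in males 1 to 3. The sexes did not overlap, and the spread within each was small beside the gap. The difference was 1.83-fold (log2 -0.87, standard error 0.10, edgeR adjusted p = 0.000509), and the adjusted p stayed at or below 0.00524 in 12 alternative settings. All of its counts were whole numbers in every library, so no divided reads are visible in it. The authors' deposited table gave it an FDR of 9.56e-10 and a log2 difference of -0.86 but did not mark it as significant.

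TRINITY_DN25139_c0_g13 was higher in females. It stood at 4.31, 5.96 and 3.55 CPM in females 1 to 3 and at 1.58, 1.24 and 1.29 CPM in males 1 to 3. The lowest female lay above the highest male, with the females spread more widely. The difference was 3.35-fold (log2 1.74, standard error 0.26, edgeR adjusted p = 0.00402; at most 0.0312 in 12 alternative settings). This member is low, with 261.9 counts in the females together and 74.73 in the males, and its counts were fractional in 4 libraries.

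**Figure D3:**
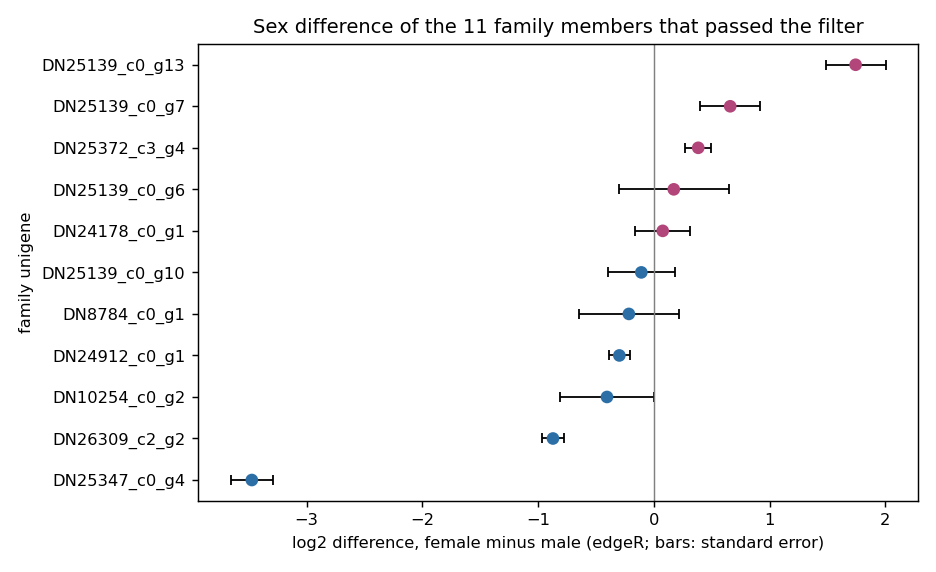
Log2 difference between female and male heads (x axis; positive is higher in females) with its standard error for the 11 members that passed the filter (y axis). TRINITY_DN25347_c0_g4 (-3.47), for which the family was chosen, and TRINITY_DN25139_c0_g13 (1.74) lie at the ends, with the others within 1 of 0.

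Cluster DN25139 held 4 of the 12 members, and reads were divided among them in pairs. Counts of TRINITY_DN25139_c0_g13 and TRINITY_DN25139_c0_g6 summed to whole numbers in all 6 libraries, and so did those of TRINITY_DN25139_c0_g7 and TRINITY_DN25139_c0_g10. The first pair matched a single Pfam reference protein, shared also with TRINITY_DN8784_c0_g1, and the second pair had a different reference protein each. The first pair summed to 83, 129 and 83 counts in females and 39, 28 and 36 in males. It was higher in females by 2.75-fold (edgeR adjusted p = 0.00918), and the adjusted p was 0.0601 without male 2. The second pair summed to 167, 209 and 190 counts in females and 148, 135 and 173 in males, overlapping between the sexes. Its log2 difference was 0.25 with a standard error of 0.15 (edgeR adjusted p = 0.579).

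Within the second pair the split of reads varied between replicate libraries. TRINITY_DN25139_c0_g7 took 72.7%, 53.6% and 35.6% of the pair's counts in females 1 to 3, beside 34.2%, 47.2% and 39.9% in males 1 to 3. The 95% exact binomial interval of that share was 65.02% to 79.1% in female 1 and 28.98% to 43.05% in female 3. These intervals take the divided counts as observed, so they cover counting error only and not the uncertainty of the division. Female 1 stood apart, with 45.56 counts of TRINITY_DN25139_c0_g10 where females 2 and 3 had 96.96 and 122.42. Neither member passed alone. TRINITY_DN25139_c0_g7 stood at 5.33 ± 1.71 CPM in females against 3.37 ± 0.515 CPM in males (edgeR adjusted p = 0.324), and TRINITY_DN25139_c0_g10 at 4.59 ± 1.84 and 4.96 ± 0.831 CPM (edgeR adjusted p = 0.944). The log2 difference of TRINITY_DN25139_c0_g10 was -0.11, and 0.18 without female 1, so its sign rests on that library.

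The effective length behind the values of TRINITY_DN25139_c0_g7 also lay apart between the sexes. Dividing a count by its TPM gives the effective length behind the value, a mean over the transcripts of the unigene weighted by their abundance, put in bases with 788 unigenes of a single transcript. For TRINITY_DN25139_c0_g7, a unigene of 2 transcripts, it was 1742, 1154 and 1452 bases in females 1 to 3 and 1997, 2093 and 1993 bases in males 1 to 3. All females lay below all males. Its TPM therefore differed more than its counts, with 3.98 ± 1.43 in females and 1.62 ± 0.221 in males. TRINITY_DN25139_c0_g13, a unigene of 4 transcripts, was at 715 ± 68.03 and 620 ± 45.03 bases, also without overlap. For TRINITY_DN25347_c0_g4 the length moved by 1.87% of its mean over the 6 libraries, so its TPM and its counts tell the same difference. In TRINITY_DN25372_c3_g4 it moved by 0.663%, in TRINITY_DN24912_c0_g1 by 6.54% and in TRINITY_DN26309_c2_g2 by 12.3%, each with overlap. These lengths were not tested. Those of TRINITY_DN25139_c0_g7 rest on 50.68 to 121.44 counts per library, fractional in all 6 libraries and divided with TRINITY_DN25139_c0_g10. Which transcripts gave its counts is thus an estimate.

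**Figure D4:**
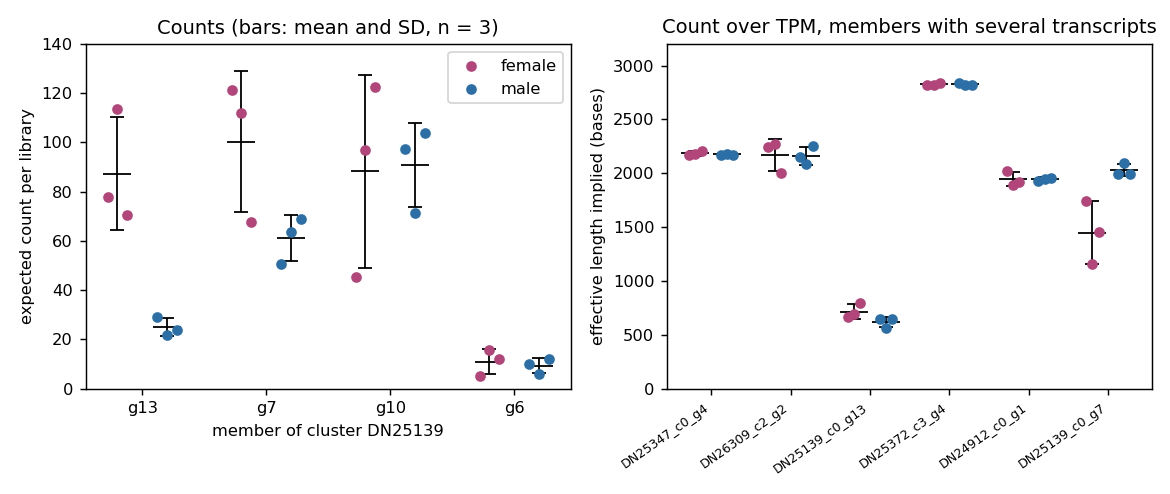
Left, expected counts per library (y axis) of the 4 members of cluster DN25139 (x axis), female and male by colour, with mean and SD; right, effective length in bases implied by count over TPM (y axis) for the 6 members with more than 1 transcript (x axis). TRINITY_DN25139_c0_g13 is higher in females, and the effective length of TRINITY_DN25139_c0_g7 is 1154 to 1742 bases in females and 1993 to 2093 bases in males.

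Among the members of over 2000 bases, TRINITY_DN24912_c0_g1 and TRINITY_DN25372_c3_g4 did not pass and had whole counts in every library. TRINITY_DN24912_c0_g1, the most abundant, stood at 67.8, 56.2 and 56.4 CPM in females 1 to 3 and 76.2, 75.1 and 70.4 CPM in males 1 to 3. Males lay above females without overlap, but the 1.23-fold difference did not pass (log2 -0.30, standard error 0.09, edgeR adjusted p = 0.151). Without female 1, its highest female, the adjusted p was 0.036. TRINITY_DN25372_c3_g4 stood at 24.9, 27.9 and 28.9 CPM in females and 20.4, 18.6 and 23.6 CPM in males (log2 0.38, standard error 0.11, edgeR adjusted p = 0.147). Here too the sexes did not overlap, in the other direction.

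The shorter members had few counts. TRINITY_DN24178_c0_g1, with the Trichogramma hit and the same Pfam reference protein as TRINITY_DN25347_c0_g4, stood at 2.68 ± 0.601 CPM in females against 2.54 ± 0.316 CPM in males (edgeR adjusted p = 0.955). Its female and male values overlapped. TRINITY_DN10254_c0_g2, TRINITY_DN25139_c0_g6 and TRINITY_DN8784_c0_g1 had between 5 and 16 counts in each library, with adjusted p of 0.797, 0.948 and 0.92. Their standard errors were 0.41, 0.48 and 0.43 on the log2 scale, beside 0.10 for TRINITY_DN26309_c2_g2, so a difference of the size seen in that member was not detectable there. TRINITY_DN10254_c0_g1 did not pass the filter, with 5, 10 and 6 counts in females and 0, 3 and 0 in males. Scaled by library size, the ratio of its 21 to 3 counts was 6.71 with a 95% counting interval of 2.0 to 35.1. That interval pools the reads of each sex and covers counting error only, not the spread between libraries. The sex difference of this member was not tested in the main fit. The authors' deposited table gave it a log2 difference of 2.82 and did not mark it as significant.

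A further 3 unigenes carried the family's orthologous group or its Pfam family without the family's description. Besides TRINITY_DN25347_c0_g2 they were TRINITY_DN25111_c0_g18 and TRINITY_DN12532_c0_g3. TRINITY_DN25111_c0_g18, of 3613 bases, has the same terms of digestion, cuticle and oogenesis as TRINITY_DN24912_c0_g1. It stood at 30.2, 19.5 and 22.4 CPM in females and 42.03, 34.2 and 32.8 CPM in males (log2 -0.60, standard error 0.16, edgeR adjusted p = 0.0902). The males lay above the females, and the call depends on the setting, with an adjusted p of 0.00656 by DESeq2, 0.016 with a replicate block and 0.00713 without female 1. Its counts and those of TRINITY_DN25111_c0_g8 and TRINITY_DN25111_c0_g2 also summed to whole numbers in all libraries, and the summed set had a log2 difference of -0.36 (edgeR adjusted p = 0.0684). TRINITY_DN12532_c0_g3 stood at 0.635 ± 0.121 and 1.19 ± 0.386 CPM (edgeR adjusted p = 0.337).

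A few unigenes had profiles close to that of TRINITY_DN25347_c0_g4 over the 6 libraries. Likeness was the root mean square difference between log2 CPM profiles, each centred on its own mean, among described unigenes with a mean of at least 1 CPM. The nearest was retinol dehydrogenase 14 (TRINITY_DN26289_c2_g8), named for a retinoid enzyme, with a difference of 0.34 on the log2 scale and r = 0.996 over 6 libraries. Next came a B1 protein-like unigene (TRINITY_DN26491_c0_g4; 0.42, r = 0.997), of a family related to odorant-binding proteins, and phytanoyl-CoA dioxygenase (TRINITY_DN25628_c3_g1; 0.47, r = 0.986), an enzyme of peroxisomal fatty acid breakdown. A pickpocket protein 11-like unigene (TRINITY_DN1070_c0_g1; 0.57), named for a sodium channel family, and odorant receptor 46a (TRINITY_DN26562_c0_g6; 0.63) closed the 5. All 5 were chosen by their values and all were 4.74-fold to 16-fold higher in males, so these correlations mostly restate the sex difference. The nearest family member was TRINITY_DN26309_c2_g2, at 1.32 and place 199 among all unigenes tested. TRINITY_DN25347_c0_g2 lay at 2.08 with r = -0.96, a relation that the divided reads enter.

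**Figure D5:**
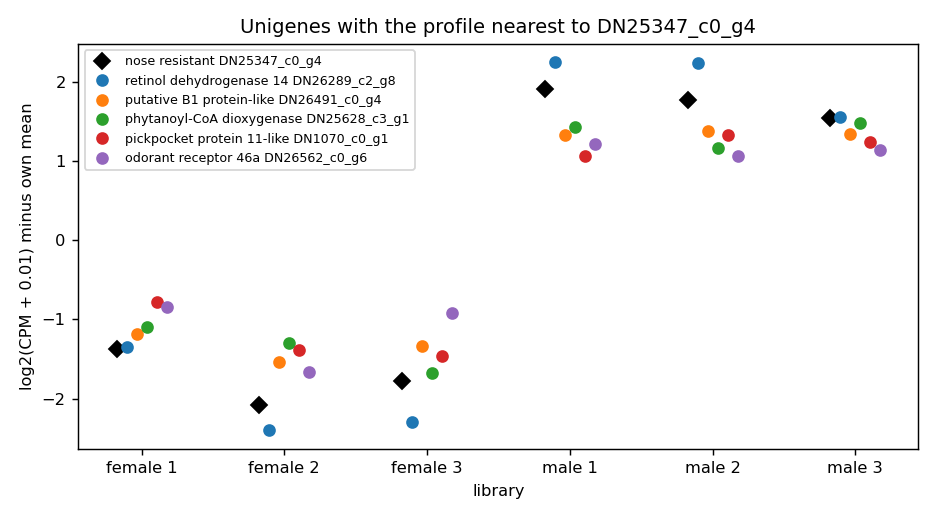
Log2(CPM + 0.01) minus the unigene's own mean (y axis) in each library (x axis) for TRINITY_DN25347_c0_g4 (diamonds) and the 5 described unigenes nearest to it. All 6 lie below their mean in the 3 females and above it in the 3 males, with retinol dehydrogenase 14 spread the widest (16-fold).

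Genes of related processes were read from 5 word lists, which hold whatever their words match. Of all unigenes tested, 1.69% were called higher in females and 1.11% higher in males. Of 6 membrane O-acyltransferases, which attach acyl groups to lipids, sterols or proteins, 2-acylglycerol O-acyltransferase 2-A (TRINITY_DN25552_c0_g11), an enzyme of triacylglycerol synthesis, was higher in males at 46.9 ± 2.52 and 83.7 ± 15.7 CPM (1.79-fold, edgeR adjusted p = 0.00429). The other 5 did not pass. The list's median log2 difference was -0.04. Of 34 glycerolipid enzymes, which include lipases and kinases named for acylglycerols, 1 passed on the female side, 3 passed on the male side and 30 missed the threshold (median -0.07). Besides the acyltransferase just named these included pancreatic triacylglycerol lipase (TRINITY_DN26658_c0_g2) at 97.8 ± 21.5 and 173 ± 19.5 CPM (edgeR adjusted p = 0.00926). The female-higher unigene was an sn1-specific diacylglycerol lipase beta-like (TRINITY_DN25027_c1_g2) at 50.5 ± 4.43 and 37.2 ± 1.98 CPM (edgeR adjusted p = 0.0253). That call was lost without female 2, without male 1 and without male 2, with an adjusted p of 0.146, 0.103 and 0.14, and with a replicate block (0.0564).

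Yolk and blood lipid carriers were listed because worm nrf-6 bears on yolk transport. Of 14 tested, 2 passed on the female side, 1 on the male side and 11 missed the threshold (median log2 -0.12). The male-higher unigene was apolipophorins (TRINITY_DN26698_c1_g4), the main blood lipid carrier, at 3737 ± 358 CPM in females against 5076 ± 367 CPM in males (1.36-fold, edgeR adjusted p = 0.0464), a call lost in 8 of 12 alternative settings. The female-higher unigenes were both described as vitellogenin-2-like, TRINITY_DN25701_c0_g9 at 8.09 ± 0.183 and 2.84 ± 0.5 CPM (edgeR adjusted p = 0.000917) and TRINITY_DN26610_c2_g7 at 9.4 ± 1.29 and 4.22 ± 0.577 CPM (edgeR adjusted p = 0.00456). Their orthologous group is a homeobox group and the SwissProt match of TRINITY_DN26610_c2_g7 is the transcription factor LBX1, so these columns do not name a yolk protein. Of 15 lipid-binding and lipid-transfer proteins, takeout (TRINITY_DN26691_c0_g8) was higher in females at 1024 ± 38.9 and 675.9 ± 15.5 CPM (edgeR adjusted p = 0.00126) and 14 did not pass (median -0.05). None of the 3 serotonin receptor unigenes, listed because fluoxetine acts on serotonin uptake in mammals, passed in edgeR, where 1 had an unadjusted p under 0.05, or in DESeq2, which called 0 (median -0.22). The smallest p was that of a 5-hydroxytryptamine receptor-like unigene (TRINITY_DN26666_c1_g4) at 82.9 ± 7.11 and 96.6 ± 3.09 CPM (adjusted p = 0.267).

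Marker lists of other tissues, which also hold whatever their words match, were read beside the male-higher members. The 46 muscle unigenes summed to between 12182 and 16409 TPM in females and between 15894 and 17286 TPM in males, which overlap. Of 34 tested, 4 were higher in males, where 1.11% of all unigenes tested were. That count was 10 without female 1, 2 without any 1 of female 2, female 3, male 1 and male 2, and 8 by DESeq2. The 34 oenocyte and epidermis unigenes summed to 1889 to 2152 TPM in females and 1383 to 1413 TPM in males, with 7 of 30 tested higher in females and 1 in males. Haemocyte markers summed to 23.1 to 30.1 TPM in females and 17.5 to 22.01 TPM in males, and testis markers to 90.01 to 98.98 and 81.3 to 86.95 TPM. Of these, 0 of 3 and 0 of 6 passed in edgeR, none had an unadjusted p under 0.05 (0 and 0), and DESeq2 called 0. Fat body markers, which take in both vitellogenin-2-like unigenes (6181 to 6915 and 6131 to 6856 TPM; 2 of 7 tested higher in females and 1 in males) and gut markers (499.6 to 573.2 and 451.9 to 507.1 TPM; 1 of 14 higher in females, 2 without female 1 and 0 without male 2) overlapped between the sexes. The shares of all unigenes tested, 1.69% on the female side and 1.11% on the male side, stand beside these counts too. No listed marker was at 0 in all libraries. The part of any of these tissues in the family's differences was not tested, and fewer cells of a type cannot be told apart from less RNA per cell in whole heads.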

How the data were processed

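Poly(A) RNA was measured in 3 libraries of female heads and 3 of male heads. Per the labels' protocols, reads were trimmed by Cutadapt with custom Perl scripts, passed through FastQC and assembled without a genome by Trinity 2.4.0, with the longest transcript of a cluster taken as the unigene. What counted the reads, how unigenes were annotated and which test the authors ran is not given in the sources used here. The deposited table holds expected counts per library, raw and not scaled by the authors. By library, 8.3% to 8.91% of these differ from a whole number by over 0.02. It also holds TPM, which per the file headers the authors computed within each library, used here only for levels. The authors' deposited log2 fold change, p-value and FDR were used only where named. All per-sample columns matched a sample by library name (0 did not). No nucleotide or protein sequence was used.

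Counts were rounded and tested with edgeR 4.0.16 in R 4.3.3 (TMM scaling; filterByExpr at min.count 10 and min.total.count 15; glmQLFTest with sex as the only term, its quasi-likelihood difference taken as female minus male), with Benjamini-Hochberg adjustment over the 21196 unigenes that passed and a threshold of 0.05. It called 593, 358 higher in females and 235 higher in males. CPM are counts over library total and TMM factor. Standard errors are the log2 difference over the root of the F statistic. DESeq2 1.42.0 was an alternative. Unigenes with shared reads were found as sets of fractional counts, within an assembly cluster, whose sums lay within 0.02 of a whole number in all 6 libraries. Hit species were sorted into vertebrates and others by hand. Effective length was scaled by single-transcript unigenes of 2000 to 3000 bases with an insert of 300 bases, as labelled. Tables came from Python 3.11.15 (pandas 2.3.3, scipy 1.17.1, numpy 2.4.6) and plots from matplotlib 3.10.9.

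The members, the lists and the rules were chosen with earlier results of these data known. Unigenes named are all members, those of other annotation columns, in each list the 2 of smallest p in each direction that passed (or the smallest p), and the 5 nearest profiles. Unigenes of the members' assembly clusters are given as counts, with those that passed named; TRINITY_DN25347_c0_g9 and TRINITY_DN25347_c0_g3 were picked after their values were seen. In marker lists only counts and sums are given, other than a median and the odorant receptor coreceptor for the head sense organs. In a simulated female against male comparison (20409 unigenes), edgeR recovered 63.3% of 90 unigenes changed by 1 and 100% of 110 changed by 2 on the log2 scale, while 18 calls were false (9.73%, over the nominal rate). Changes were planted only in unigenes above a minimum mean count, so the shares recovered do not cover the members with few counts.

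The alternatives were size factors of DESeq2, its Wald test, no filter, a filter of at least 50 counts in 3 libraries, a replicate block, leaving out each library, leaving out vertebrate hits, another membership and, for the order of levels, CPM or the median. The alternative pseudocount for tables without counts did not apply.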

Additional observations from a re-analysis of the deposited data

How the results depend on the processing

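The log2 difference of TRINITY_DN25347_c0_g4 kept its sign in 12 settings (-3.67 to -3.32) and turned to 0.24 where unigenes that share reads were summed, which by construction is the value of the pair. TRINITY_DN25139_c0_g10 turned from -0.11 to 0.25 in the same way. Leaving out a library gave log2 differences from -0.11 to 0.19 for TRINITY_DN24178_c0_g1, from -0.37 to 0.18 for TRINITY_DN25139_c0_g10, from -0.20 to 0.49 for TRINITY_DN25139_c0_g6 and from -0.38 to 0.0600 for TRINITY_DN8784_c0_g1, so their signs are not settled; the cause was not tested. Without TRINITY_DN25347_c0_g4, 2 members passed the threshold in every setting run other than without female 1, which gave 3. The 593 calls over all unigenes became 357 to 688 when a library was left out, with 358 without female 2 and 357 without male 2. Leaving out unigenes with a vertebrate best hit gave 633 calls, 395 on the female side and 238 on the male side. The share of unigenes called in that setting is not given here. The shares set beside the members and lists thus hold only with the vertebrate hits kept in. Of the 12 members 4 kept their place in the order of levels with CPM and 6 with the median TPM; CPM takes no account of length. With the replicate block 576 unigenes and 2 members were called. The correlation of the deviations of same-numbered libraries was -0.02, -0.07 and -0.01, so the numbers were not taken to pair the samples. Members with under 20 counts per library limit what could be seen in them, and nothing in these counts shows how many reads were divided between unigenes.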
